A study of Mus musculus with 8 samples.

Results

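Lens fibers and lens epithelium of newborn mice were compared through the peaks of open chromatin that were called in 1 of the 2 tissues and had no counterpart in the other. A peak was a member where no peak of the other P0.5 list overlapped it by 1 bp. There were 74481 such peaks among the 121587 peaks of both P0.5 lists, and the 4 lists of the series held 345333 peaks. Of the members, 38938 were called only in P0.5 fibers and 35543 only in P0.5 epithelium. Genes were sorted in the same way, by whether a peak of 1 list or of both lay over the gene body or within 2 kb of a transcription start site (TSS), which is called the promoter here.

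Open chromatin was mapped by ATAC-seq, in which the transposase Tn5 inserts sequencing adaptors into accessible DNA, in lens epithelium and lens fibers micro-dissected from CD1 mice before birth (E14.5, for embryonic day) and at birth (P0.5, for postnatal day). Each of the 4 groups had 2 libraries, each made from several lenses, and the deposited lists hold peaks called after the 2 libraries of a group were pooled. CD1 is an outbred strain, no allele or treatment is named for any group, and the sexes of the animals are not given in the sources used here. The lists hold no values per library and no read counts, so depth was not used here, no test across replicates could be made, and every interval below covers counting error only, with peaks taken as independent.

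The lens grows from a single layer of epithelial cells on its front side. These cells divide, leave the cell cycle near the equator and elongate into fibers, which fill with crystallins, the soluble proteins that refract light, and later lose their nuclei and organelles. The transcription factors Maf and Sox1 are required for fiber crystallin expression, whereas Foxe3, Pitx3 and Pax6 act in the epithelium, and Tead proteins are the DNA-binding partners of the growth regulators Yap and Taz.

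The sequences at the summits of 8 members show what the comparison deals with, 3 at genes with many fiber-only peaks and 5 at genes with many epithelium-only peaks. They are reference sequence of GRCm38 (mm10) from RefSeq, plus strand, 5′ to 3′, with up to 200 bases around the summit. Capitals mark the short words searched for 4 factors on either strand, which were Tead (GGAATG), Maf (TGCTGA), Sox (AACAAT) and Pitx (TAATCC). The Crybb3 peak was picked among those with a Maf word. The Pdpn, Tcf7l1 and distant Efna5 peaks were picked among those with a Tead word. The presence of these words there was therefore fixed in advance and is no result.
Crybb1 promoter peak, fibers only, chr5:112255624-112255819: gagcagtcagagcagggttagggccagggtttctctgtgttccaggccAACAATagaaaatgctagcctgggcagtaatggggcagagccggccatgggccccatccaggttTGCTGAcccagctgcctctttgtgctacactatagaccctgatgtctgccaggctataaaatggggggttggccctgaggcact
Crybb3 intron peak, fibers only, chr5:113078571-113078770: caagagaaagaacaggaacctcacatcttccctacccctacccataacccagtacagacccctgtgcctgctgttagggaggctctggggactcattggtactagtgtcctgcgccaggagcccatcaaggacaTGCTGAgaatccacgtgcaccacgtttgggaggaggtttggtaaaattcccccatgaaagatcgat
Wnt7a intron peak, fibers only, chr6:91366906-91367105: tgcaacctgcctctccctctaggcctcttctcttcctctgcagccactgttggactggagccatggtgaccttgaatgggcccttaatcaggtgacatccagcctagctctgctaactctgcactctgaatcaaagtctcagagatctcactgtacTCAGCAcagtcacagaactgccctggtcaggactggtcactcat
Pdpn intron peak, epithelium only, chr4:143295207-143295406: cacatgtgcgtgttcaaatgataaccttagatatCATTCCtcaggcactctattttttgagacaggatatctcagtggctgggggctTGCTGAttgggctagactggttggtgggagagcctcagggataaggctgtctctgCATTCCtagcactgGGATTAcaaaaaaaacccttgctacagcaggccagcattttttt
Cdh1 intron peak, epithelium only, chr8:106626151-106626350: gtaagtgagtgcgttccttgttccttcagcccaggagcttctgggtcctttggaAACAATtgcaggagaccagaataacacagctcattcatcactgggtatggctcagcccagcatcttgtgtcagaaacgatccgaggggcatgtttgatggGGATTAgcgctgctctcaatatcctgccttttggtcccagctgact
Tcf7l1 intron peak, epithelium only, chr6:72740660-72740859: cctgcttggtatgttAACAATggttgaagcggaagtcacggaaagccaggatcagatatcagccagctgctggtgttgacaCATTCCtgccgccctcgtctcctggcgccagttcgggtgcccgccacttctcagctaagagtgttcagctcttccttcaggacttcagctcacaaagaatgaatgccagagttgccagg
Efna5 distant intron peak, epithelium only, chr17:62690352-62690551: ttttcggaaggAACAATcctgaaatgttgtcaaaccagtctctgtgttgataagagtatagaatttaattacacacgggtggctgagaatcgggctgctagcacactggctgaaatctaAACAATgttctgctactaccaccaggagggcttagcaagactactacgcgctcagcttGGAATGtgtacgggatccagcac
Efna5 first-ranked intron peak, epithelium only, chr17:62844442-62844641: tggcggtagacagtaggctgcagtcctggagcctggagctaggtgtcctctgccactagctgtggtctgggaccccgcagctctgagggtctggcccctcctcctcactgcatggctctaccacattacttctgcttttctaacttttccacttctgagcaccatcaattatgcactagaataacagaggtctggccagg

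The Crybb1 sequence lay directly upstream of the TSS of the gene, which encodes a beta crystallin, with the summit 96 bp upstream, and it held a Maf word and a Sox word. The Crybb3 and Wnt7a sequences lay in introns and held a Maf word each. The Pdpn sequence, from an intron of the podoplanin gene, held 2 Tead words, a Maf word and a Pitx word, and the Cdh1 sequence, from an intron of the E-cadherin gene, held a Sox word and a Pitx word. The Tcf7l1 sequence held a Tead word and a Sox word, and the distant Efna5 sequence held a Tead word and 2 Sox words. The other Efna5 sequence, at a stronger peak, held none of the 4 words. A match of these letters is a description of the sequence and not a binding site. Over all 121424 peaks of both lists on the 21 chromosomes, 12.8% held the Tead word, 18.9% the Maf word, 4.76% the Sox word and 4.36% the Pitx word within 200 bp around the summit.

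Peaks called in 1 tissue only were the weaker and narrower peaks of each list. Of the P0.5 fiber peaks, 61.8% (Wilson 95% confidence interval 61.4% to 62.2%) had no overlap in the epithelium list, and of the P0.5 epithelium peaks 60.7% (60.3% to 61.1%) had none in the fiber list. In the strongest quintile of each list by p value, the share was 5.95% (5.55% to 6.38%) in fibers and 10.8% (10.2% to 11.4%) in epithelium. In the weakest quintile it was 88.2% (87.6% to 88.7%) and 85.0% (84.4% to 85.6%). The median width of the members was 155 bp in fibers and 156 bp in epithelium, against 345 bp and 486 bp for the peaks that overlapped. The share near the edge of the rule depended on the distance allowed. Of the fiber-only peaks 3.27%, and of the epithelium-only peaks 3.15%, lay within 100 bp of a peak of the other list. Within 500 bp these shares were 13.8% and 14.4%. Of the overlapped fiber peaks 0.952% overlapped an epithelium peak by no more than 10 bp, and 12.2% by no more than 100 bp.

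The call strength behind the 2 sets differed. A q value under 0.001 was reached by 30.1% of the fiber-only peaks and by 81.1% of the epithelium-only peaks, and the weakest quintile of the fiber list began at a −log10 p of 3.69 against 4.07 in epithelium. With q under 0.001 asked of both lists, 12165 fiber-only and 32568 epithelium-only peaks were left, so the larger set was then that of the epithelium. With the 30000 strongest peaks of each list the counts were 13716 and 14473. The number of reads behind each list was not used here, and its part in these counts was not tested. By the study's methods, fewer cells entered a P0.5 fiber reaction than a P0.5 epithelium reaction. The part of this difference was not tested either, and it cannot be told apart from that of the tissue.

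**Figure D1:**
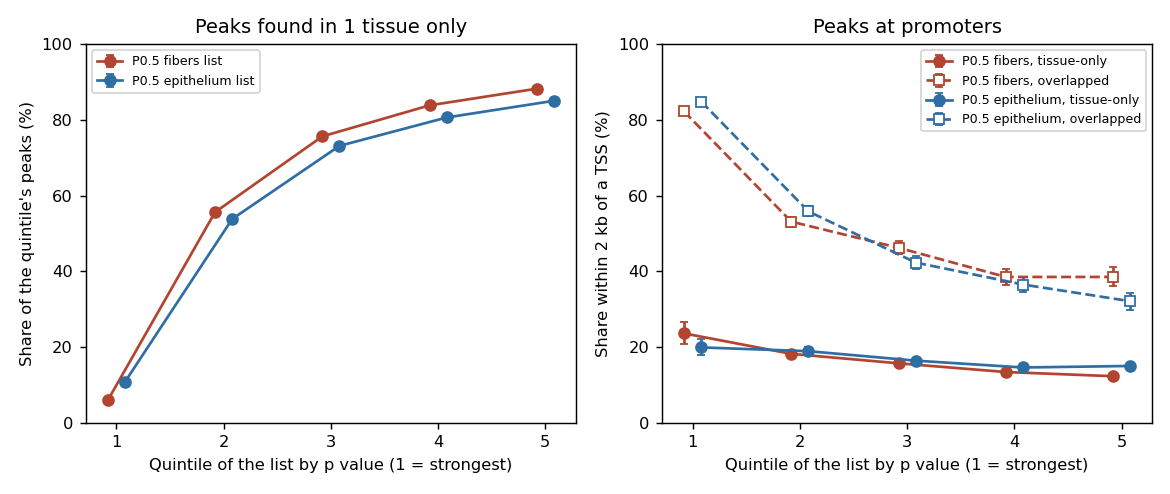
Left, the share of peaks called in 1 tissue only (%) in each quintile of the P0.5 fiber and P0.5 epithelium lists, ordered by p value. Right, the share of peaks within 2 kb of a TSS (%) among tissue-only peaks (filled) and overlapped peaks (open). Bars are Wilson 95% intervals. The tissue-only share goes from 5.95% to 88.2% in fibers and from 10.8% to 85.0% in epithelium, and promoters hold more of the overlapped peaks than of the tissue-only peaks in every quintile.

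Most members lay in genes away from promoters, in fibers more than in epithelium. Gene bodies outside promoters held 59.2% (58.8% to 59.7%) of the fiber-only peaks and 49.2% (48.7% to 49.7%) of the epithelium-only peaks, a difference of 9.31 to 10.7 percentage points (Newcombe interval). Promoters held 14.7% of the fiber-only and 16.1% of the epithelium-only peaks, against 64.4% and 63.4% of the overlapped peaks of the 2 lists. Epithelium-only peaks lay more often up to 50 kb away from a gene (23.5% against 19.2%) or farther (11.2% against 6.88%). A promoter share between 12.3% and 23.6% was found in every quintile of the fiber-only peaks, and between 14.6% and 19.9% in the epithelium-only peaks.

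Most promoters with a peak had one in both tissues, and few genes had a promoter peak in 1 tissue only. Both lists had a peak at the promoter of 12836 among 21000 protein-coding genes, and 6200 had none. A promoter peak was present only in fibers in 737 genes, 3.51% of all, and only in epithelium in 1227 genes, 5.84% of all. Over gene bodies, 851 genes (4.05%) were covered in fibers only and 1164 (5.54%) in epithelium only. Many genes held members of both kinds: 5592 genes had fiber-only and epithelium-only peaks, with a median length of 40.3 kb, while 3617 genes with a median of 13.9 kb had fiber-only peaks alone and 2906 genes with a median of 24.9 kb had epithelium-only peaks alone. With q under 0.001 in both lists, 357 promoters were left for fibers and 1925 for epithelium.

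The crystallin genes, which served as the check of the fiber label, had more peaks and wider coverage in fibers. Among the 8 alpha and beta crystallin genes, Cryba4 and Crybb2 had a promoter peak in fibers only and the other 6 in both tissues. Among the 8 gamma crystallin genes, Cryga, Crygb and Crygf had one in fibers only, 4 had one in both tissues, and Crygs had none. No crystallin promoter was covered in epithelium only, although Cryge was with q under 0.001 in both lists, against background shares of 3.51% and 5.84% for the 2 directions. The share of the gene body under peaks, called coverage here, was compared with that of all 19556 protein-coding genes no shorter than 1 kb. Of these, 36.7% had higher coverage in fibers and 42.4% in epithelium. The remaining 4077 genes had equal coverage in both, and these ties lower both shares wherever they serve as background. Coverage was higher in fibers for 7 of the 8 alpha and beta and for 7 of the 8 gamma crystallins, with Cryab (17.8% in fibers, 20.5% in epithelium) and Crygs (0% in both) as the others. The median coverage was 26.0% in fibers and 6.70% in epithelium for alpha and beta crystallins, and 15.0% and 2.74% for gamma crystallins. Over all genes the medians were 1.29% and 1.39%. The reads of the gamma crystallin genes, which are near copies of each other, can be placed at the wrong copy, and how such reads were treated is not given in the sources used here.

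At Crybb1, 10 fiber-only peaks and no epithelium-only peak were called, and coverage was 47.0% in fibers and 0.908% in epithelium. The fiber-only peak at its TSS was 1589 bp wide and had rank 2406 of 62995 by fold enrichment, the highest of the fiber-only peaks at any annotated gene apart from one at a microRNA gene, Mir6236. A second fiber-only peak of 2756 bp followed in the first part of the gene, and it was the widest of all fiber-only peaks. Only 2 epithelium peaks were called at the gene, of 131 bp and 125 bp, and both overlapped fiber peaks. Cryba4, the neighbouring gene, had 6 fiber-only peaks and coverage of 29.6% against 2.26%. Crybb3 had 6 and coverage of 71.2% against 8.32%. Cryaa, which encodes alpha A-crystallin, was covered over 100% of its length by 1 fiber peak of 5762 bp and over 26.2% by 3 separate epithelium peaks. Because that fiber peak overlapped the epithelium peaks, it was no member, and only 2 small upstream peaks of Cryaa were fiber-only. Crygb had 3 fiber-only peaks, coverage of 24.0% in fibers and no epithelium peak at all.

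**Figure D2:**
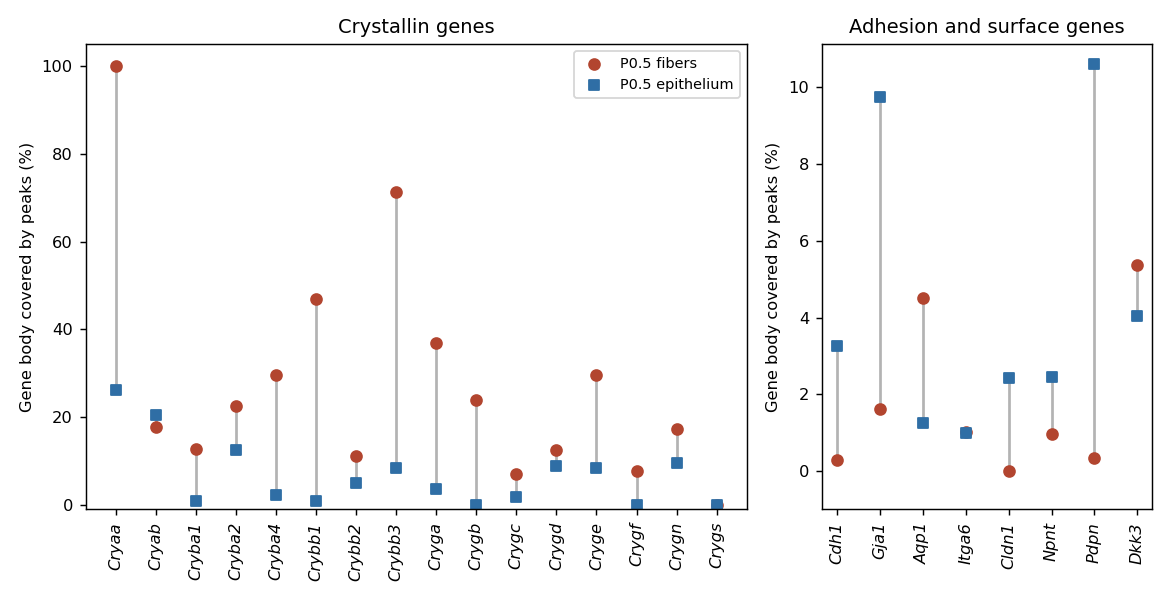
Share of the gene body under peaks (%) in P0.5 fibers (circles) and P0.5 epithelium (squares) for the 16 crystallin genes (left) and for 8 adhesion and surface genes of the epithelium (right, with its own scale). Coverage is higher in fibers for all crystallins except Cryab and Crygs, and it is higher in epithelium for Cdh1, Gja1, Cldn1, Npnt and Pdpn.

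Genes for other fiber structures mostly shared their promoters between the tissues. All 8 genes for membrane and junction proteins had a promoter peak in both lists, beside 61.1% of all genes. They held 21 fiber-only and 24 epithelium-only peaks, where all protein-coding genes summed to 28890 and 22730. Their median difference in coverage was 1.39 points in favour of fibers and turned to −0.137 points with the first 2 kb of the gene body left out. At Mip, the lens water channel, 3 fiber-only peaks stood against none, and coverage was 13.6% in fibers and 0.9995% in epithelium. Cdh2, the N-cadherin gene, was different, with 2 fiber-only and 13 epithelium-only peaks and coverage of 1.34% and 2.51%. Among the 8 cytoskeleton genes, Bfsp1, which encodes the beaded filament protein filensin, had 7 fiber-only peaks and 1 epithelium-only peak, and Tmod1, which caps actin filaments, had 8 and 0. The spectrin gene Sptbn1 was the 1 gene of this group with a promoter peak in epithelium only. Ank2, which links spectrin to the membrane, had 8 fiber-only and 16 epithelium-only peaks. The median difference in coverage of the 8 cytoskeleton genes was 0.525 points in favour of fibers and turned to −0.212 points with q under 0.001. Among 11 genes for fiber maturation and the loss of organelles, Hsf4, a heat shock factor needed in fibers, had 7 fiber-only and 2 epithelium-only peaks, with coverage of 32.1% and 7.30%. Birc7 had a promoter peak in fibers only, and Dnase2b, the nuclease that degrades fiber DNA, had no promoter peak and 1 fiber-only peak in its gene body.

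Several epithelial adhesion and surface genes had more peaks in epithelium. Of 8 genes, 5 had higher coverage in epithelium and 3 (Aqp1, Itga6 and Dkk3) in fibers, beside 42.4% and 36.7% of all genes. The list held 29 epithelium-only and 11 fiber-only peaks, whereas all protein-coding genes summed to 22730 and 28890. Pdpn had 9 epithelium-only peaks and none in fibers only, and its coverage was 10.6% in epithelium and 0.336% in fibers. Cdh1, the gene of the main epithelial cadherin, had 6 and none, with coverage of 3.27% and 0.277%. The strongest of these, in an intron 22901 bp from the start of the gene, had rank 8530 of 58592. At Gja1, which encodes the gap junction protein connexin 43, the counts were 3 and none and the coverage 9.76% and 1.62%. Cldn1, a tight junction gene, was the 1 promoter of the group covered in epithelium only, and with q under 0.001 in both lists Cdh1, Gja1 and Pdpn joined it. When a peak of any strength in the other list was enough to drop a promoter, Cldn1 alone was left.

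The transcription factor genes of both tissues had open promoters in both. All 9 fiber factors and all 10 epithelium factors had a promoter peak in each list, against 61.1% of all protein-coding genes. Coverage was higher in fibers for 5 of the fiber factors and 4 of the epithelium factors, and higher in epithelium for 4 and 6, beside 36.7% and 42.4% of all genes. Maf had coverage of 34.6% in fibers and 16.4% in epithelium without a single tissue-only peak. Gata3 had 3 fiber-only peaks and no epithelium-only peak. Of the epithelium factors, Meis1 had 17 epithelium-only and 4 fiber-only peaks and Meis2 had 13 and 4. Myc, a driver of cell growth, had 2 and 0 with coverage of 57.2% in epithelium and 30.2% in fibers. Pax6, which acts in both tissues, had 8 peaks of each kind and coverage of 16.1% in fibers and 17.2% in epithelium. Pitx3, an epithelium factor, had 3 fiber-only peaks and 1 epithelium-only peak and coverage of 22.9% in fibers and 13.0% in epithelium. Prox1, a fiber factor, had coverage of 4.94% in fibers and 7.76% in epithelium.

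In the Notch and FGF lists, coverage was higher in fibers for 5 of 11 and 7 of 14 genes. In epithelium it was higher for 6 and 7, where 36.7% and 42.4% of all genes were higher in fibers and in epithelium. With the first 2 kb of each gene body left out, 6 of 9 Notch genes were higher in fibers and 3 in epithelium. For the 14 FGF genes the counts were then 9 and 5, and for all 17799 genes long enough 5761 and 4153. With q under 0.001 in both lists they were 3 and 8 for Notch and 6 and 8 for FGF, beside 4598 and 10212 of all genes. Single genes differed in both directions. Both Jagged ligands of the Notch pathway had shared promoters, but Jag2 had 11 fiber-only peaks and 1 epithelium-only peak, with coverage of 22.7% in fibers and 7.43% in epithelium, whereas Jag1 had no fiber-only and 7 epithelium-only peaks, with 5.39% and 12.6%. The receptor gene Notch1 had 18 and 6, and Notch2 had 6 and 10. The Jag2 peaks were weak, with a −log10 q between 1.33 and 6.40 for the 11 fiber-only ones and a highest rank of 11440. The block of 500 kb that holds Jag2, with Akt1, Inf2 and other genes, had 108 fiber-only and 29 epithelium-only peaks in all. Within the FGF list, Fgfrl1 had 13 fiber-only peaks and none in epithelium only, with coverage of 48.3% and 13.9%. Of the FGF receptors, which mediate the main signal for fiber differentiation, Fgfr3 had 9 and 2. Fgfr2 went the other way with 5 and 11. Fgfr4 was the 1 gene of 14 in this list with a promoter peak in epithelium only.

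Of the Wnt ligands, Wnt7a had 19 fiber-only peaks and 1 epithelium-only peak, with coverage of 9.96% and 2.33%, and Wnt7b had 15 and 5. Wnt5a had no fiber-only and 6 epithelium-only peaks, with coverage of 1.29% in fibers and 6.70% in epithelium. Tcf7l1, a repressor among the factors that bind beta-catenin, had 9 fiber-only and 22 epithelium-only peaks. Wls, which carries Wnt proteins to the cell surface, held an epithelium-only intron peak of rank 2324, and the co-repressor gene Tle1 one of rank 2473, both among the 10 highest epithelium-only peaks at genes. All 18 genes of the Wnt list and all 16 of the Hippo and Yap list had a promoter peak in both tissues, beside 61.1% of all genes. Ccn1, a known Yap target, had 3 epithelium-only peaks and none in fibers only, with coverage of 32.7% in epithelium and 10.7% in fibers, while Amotl2 had 8 fiber-only peaks and 1 epithelium-only peak. Coverage was higher in epithelium for 12 of the 16 Hippo and Yap genes and for 16 of the 18 BMP and TGF-beta genes, beside 42.4% of all genes. Among all genes, 4077 had equal coverage in both tissues, and none of the Hippo, Yap, BMP or TGF-beta genes had. With the first 2 kb of each gene body left out, 6 genes of the Hippo and Yap list were higher in each tissue, and of the 15 BMP and TGF-beta genes long enough 4 were higher in fibers and 9 in epithelium. Over all 17799 genes long enough, 5761 were then higher in fibers and 4153 in epithelium.

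The lens capsule, the basement membrane around the lens, is made by the epithelium and by fibers. Of its 17 genes, 14 had a promoter peak in both tissues and 3 in epithelium only, namely Col4a5, Col4a6 and Nid1, beside 61.1% and 5.84% of all genes. Col4a5 and Col4a6 lie head to head, and the same 3 epithelium-only peaks count for both promoters. Within the list, Lama5, a laminin chain, had 23 fiber-only and 5 epithelium-only peaks, and Hspg2, the gene of perlecan, had 21 and 10. The collagen gene Col4a2 had 14 and 25, and Lamb1 had 2 and 10. Col4a5 and Col4a6 are on chromosome X, which carried 0.344% of the fiber-only peaks and 1.47% of the epithelium-only peaks, and 1.82% and 1.73% of the overlapped peaks of the 2 lists. Of the genes with a promoter peak in epithelium only, 113 of 1227 (9.21%) lay on X, against 10 of 737 (1.36%) in fibers only and 902 of all 21000 genes (4.30%). In E14.5 fibers, 106 of those 113 promoters held a peak, and in E14.5 epithelium 107, beside 88.0% and 89.6% of all 1227 genes. The cause was not tested, the sexes of the animals are not given in the sources used here, and without chromosome X the counts of such genes were 727 for fibers and 1114 for epithelium.

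**Figure D3:**
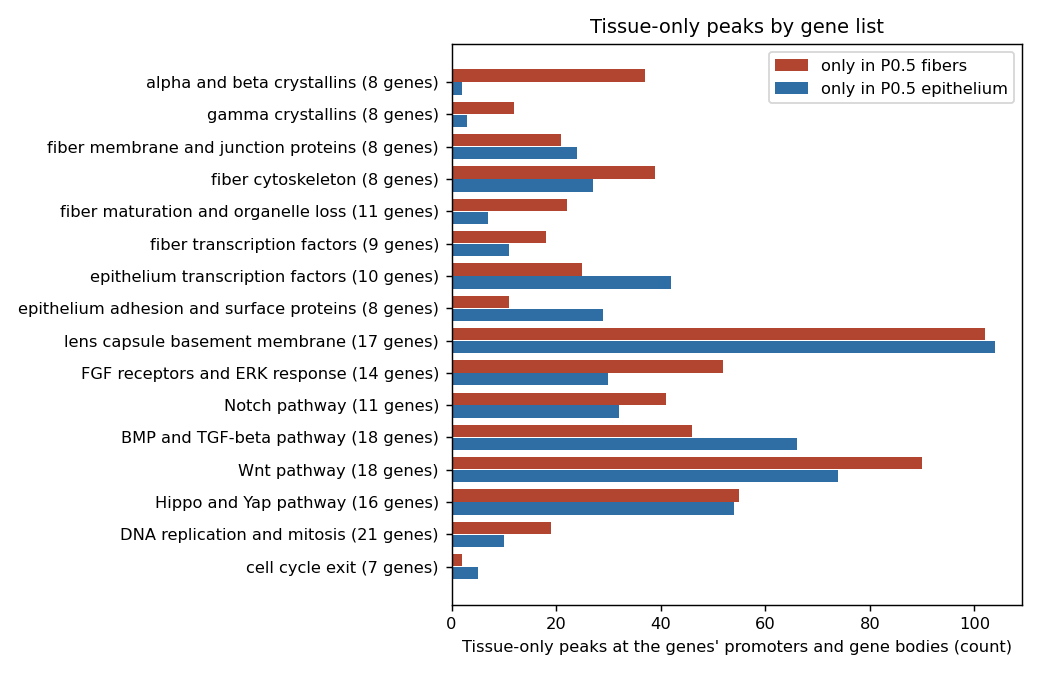
Number of tissue-only peaks at the promoters and gene bodies of 16 lists of lens genes, with fiber-only peaks in red and epithelium-only peaks in blue. Alpha and beta crystallins have 37 and 2, epithelial adhesion and surface genes 11 and 29, and the Wnt list 90 and 74, while all protein-coding genes sum to 28890 and 22730. Of these peaks, those with q under 0.001 number 22 and 1, 2 and 28, and 39 and 60, so the order turns for the Wnt list. Over all members, 30.1% of the fiber-only and 81.1% of the epithelium-only peaks reach that q value.

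Outside the lists, genes with the most members differed between the tissues as well. Casz1, a zinc finger factor, had 43 fiber-only and 21 epithelium-only peaks, the histone demethylase gene Kdm4b 41 and 9, and Ccdc85c 35 and 8. Crim1, a transmembrane protein of lens epithelium that binds BMP ligands, had 7 fiber-only and 48 epithelium-only peaks, the forkhead gene Foxp1 12 and 43, and Pdzd2 10 and 35. Msi2, an RNA-binding protein, was among the 10 highest on both sides, with 35 and 40. So was Dnah8, with 43 and 44, but Dnah8 and a part of Btbd9 lay in a block of chromosome 17 (chr17:30400001-31000000) with 169 fiber and 162 epithelium peaks at P0.5 and 17 and 14 at E14.5, and their counts are not comparable with those of other genes. Efna5, an ephrin gene, held strong members of both kinds. A fiber-only peak of rank 4821 lay at its promoter, 329 bp from the TSS, and an epithelium-only intron peak of rank 2324 lay 36775 bp from it.

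Single genes outside the lists differed most in coverage together with some crystallins. Cryaa and Crybb3 were among the 10 with the largest difference towards fibers, together with Tmem200b (74.0% in fibers, 0% in epithelium), Mrps34 (89.2% and 23.8%) and Nkg7 (55.3% and 0%). Towards the epithelium they included Ier2 (73.5% in epithelium, 27.3% in fibers), Gadd45g (76.3% and 39.2%) and Egr1 (54.6% and 18.4%). Ier2 and Egr1 are immediate early genes, which respond within minutes to growth factors and to stress. Gadd45g had no tissue-only peak, so its difference came from wider shared peaks. Among genes with the highest-ranked promoter peak in fibers only were Crygb, the retinal gene Rbp3 and the homeobox gene Cdx2, and among those in epithelium only were Pecr, Eif2d and Kcnab3.

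Marker genes of other cells that dissection could carry along were covered to different degrees. Over 7 lists with 49 genes (vascular endothelium, macrophages, retina, cornea and surface ectoderm, periocular mesenchyme, pigment cells and red blood cells), 22 had no promoter peak, 13 had one in both tissues, 4 in fibers only and 10 in epithelium only, beside 3.51% and 5.84% of all genes in 1 tissue only. Median coverage was 0% in both tissues for the corneal and red blood cell lists, 4.01% in fibers and 3.87% in epithelium for the periocular mesenchyme list and 3.40% and 0.201% for the retina list, beside 1.29% and 1.39% over all genes. The retina list had 3 promoters in fibers only (Neurod1, Pou4f2 and Rcvrn) and 2 in epithelium only (Crx and Rax), and the macrophage list 1 of each (Spi1, with 10 fiber-only peaks, and Csf1r). Of the keratin genes, Krt15 had a promoter peak in epithelium only and Krt5 a gene body peak in epithelium only, and Krt12 and Krt14 had no peak in either list. The part of other cells in the results above was not tested, and in tissue pieces fewer cells of a type and less accessibility per cell cannot be told apart.

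The 2 lists of E14.5 lenses, which had no role in choosing the members, show how far each set was already open in the embryo. Of the epithelium-only peaks, 67.6% met a peak of the E14.5 epithelium list and 62.5% one of the E14.5 fiber list, and 24.5% by neither. Of the fiber-only peaks, 34.1% were overlapped by E14.5 fibers and 22.2% by E14.5 epithelium, and 60.9% by neither. Each set was thus overlapped more often by the embryonic list of its own tissue, by 11.9 points (paired interval 11.4 to 12.3) in the fiber-only set and by 5.14 points (4.67 to 5.62) in the epithelium-only set. The E14.5 fiber list was the larger one, with 123686 peaks on the 21 chromosomes against 99921.

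The strongest quintile began at a −log10 p of 9.43 in the fiber list and of 26.4 in the epithelium list, so the quintiles are not of like strength. In it, 99.6% (99.1% to 99.8%) of the epithelium-only peaks were overlapped by E14.5 epithelium and 68.4% (65.0% to 71.6%) of the fiber-only peaks by E14.5 fibers. In the weakest quintile of the epithelium-only peaks, the order of the 2 embryonic lists turned, with 42.1% (41.1% to 43.1%) for E14.5 fibers and 39.2% (38.2% to 40.2%) for E14.5 epithelium. At the level of promoters, 77 of the 1227 epithelium-only genes (6.28%) and 251 of the 737 fiber-only genes (34.1%) had no promoter peak in either E14.5 list.

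Most crystallin peaks of the fiber-only set were open in E14.5 fibers, beside 34.1% of all fiber-only peaks and 57.2% of those at promoters. For E14.5 epithelium these background shares were 22.2% and 43.1%. Promoters held 19 of the 37 fiber-only peaks of alpha and beta crystallin genes and 10 of the 12 of gamma crystallin genes. Of the 37 fiber-only peaks at alpha and beta crystallin genes, 33 were overlapped by E14.5 fibers and 12 by E14.5 epithelium, and of the 12 at gamma crystallin genes 12 and 7. All 10 fiber-only peaks of Crybb1 were overlapped by E14.5 fibers. For the fiber cytoskeleton the counts were 25 and 7 of 39. At Jag2, 2 of the 11 fiber-only peaks were overlapped by E14.5 fibers and 2 by E14.5 epithelium. Of the 29 epithelium-only peaks at adhesion and surface genes, 21 were overlapped by E14.5 epithelium and 18 by E14.5 fibers, beside 67.6% and 62.5% of all epithelium-only peaks. Peaks of E14.5 fibers over crystallin genes are wide, with a median coverage of 96.5% for the alpha and beta crystallin genes, so an overlap there is easily met.

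**Figure D4:**
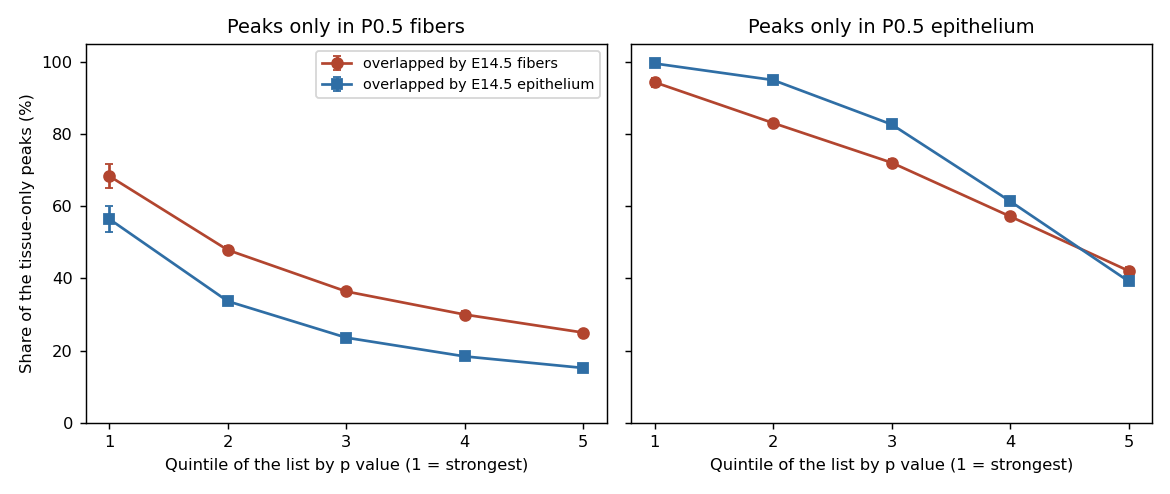
Share (%) of peaks only in P0.5 fibers (left) and only in P0.5 epithelium (right) that are overlapped by a peak of E14.5 fibers (circles) or E14.5 epithelium (squares), in quintiles of each P0.5 list by p value, with Wilson 95% intervals. Fiber-only peaks start at 68.4% for E14.5 fibers and fall with each quintile, and epithelium-only peaks from 99.6% to 39.2% for E14.5 epithelium.

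Of 16 short sequence words, the Tead word had the largest difference in points between the sets. It occurred within 200 bp around the summit in 19.2% of the epithelium-only and 11.1% of the fiber-only peaks, a difference of −8.11 points, fibers minus epithelium (Newcombe interval −8.63 to −7.60). The Sp1 word GGGCGG followed with 11.4% and 6.78%, the Sox word with 7.85% and 4.02% and the Pitx word with 6.85% and 3.69%. The homeodomain word TAATTA was held by 2.53% and 0.879%. The Maf word was found in 21.1% of the fiber-only and 20.9% of the epithelium-only peaks, and the interval of the difference included 0 (0.162 points, −0.424 to 0.747). With q under 0.001 in both lists the Maf difference was 1.43 points (lower bound 0.572), and with the 30000 strongest peaks 1.52 points (lower bound 0.560), both with intervals above 0. The Runx word TGTGGT was the 1 of 16 words that was more frequent in the fiber-only set with an interval above 0, at 16.4% against 14.1%. GGAATG is not unique to Tead proteins, and the factor that bound at a word was not measured.

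Among strong peaks outside promoters, the differences grew for some words and shrank or turned for others. In the strongest quintile there, the Tead word was held by 27.8% of 1013 epithelium-only and 9.28% of 571 fiber-only peaks, and the Pitx word by 12.3% and 3.68%. The Maf word was then more frequent in the fiber-only set, with 28.7% against 23.3% (5.42 points, with a lower bound of 0.956), as was the Runx word with 19.4% against 12.5%. The Sp1 difference was −1.39 points with an interval that included 0 (−4.24 to 1.70), and the CTCF word AGGGGGC was more frequent in the fiber-only set, with 6.65% against 3.65%. The sets differed in base composition, with a median GC content of 55.0% in fiber-only and 53.0% in epithelium-only peaks, and of 57.0% and 51.5% in the strongest quintile outside promoters. Words were compared within ranges of GC over all peaks outside promoters, and not within that quintile. With 50% to 60% GC, the Tead difference was −7.82 points (−8.53 to −7.11), the Maf difference −0.187 points and the Runx difference 2.09 points. The Sox difference was −2.46 points there, against −4.43 points in all peaks outside promoters, and the homeodomain difference −1.04 against −1.76 points. The Sp1 difference was −3.77 points at 50% to 60% GC. At 60% to 70% GC the Sp1 difference was −11.5 points and larger than the Tead difference of −4.50 points. At 40% to 50% GC the Tead word was held by 12.4% of the fiber-only and 24.4% of the epithelium-only peaks. The Sp1 word was held by 1.58% and 2.39% there.

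The place of the words within the peaks differed too. Outside promoters, the Tead word in epithelium-only peaks occurred 26.2 times per 1000 peaks and 20 bp within 50 bp of the summit and 13.1 times at 200 to 280 bp, a ratio of 1.99. In fiber-only peaks the values were 12.4 and 11.8, a ratio of 1.05. The sets thus differed more at the centre than in the flanks. The Maf word gathered at the centre in both sets, with ratios of 1.35 in fiber-only and 1.52 in epithelium-only peaks. The Pitx word had ratios of 0.642 in fiber-only and 1.17 in epithelium-only peaks. The Sox word was less frequent at the centre than in the flanks in both sets, with ratios of 0.533 and 0.874.

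**Figure D5:**
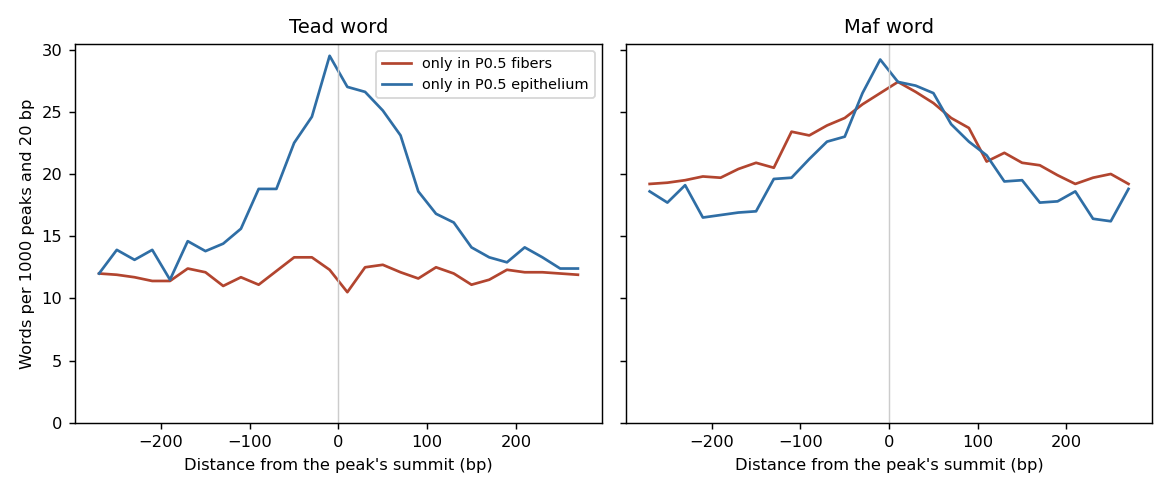
Number of Tead words (left) and Maf words (right) per 1000 peaks and 20 bp against the distance from the summit (bp), in peaks outside promoters called only in P0.5 fibers or only in P0.5 epithelium. The Tead word rises from 13.1 in the flanks to 26.2 near the summit in epithelium-only peaks and averages 11.8 in the flanks and 12.4 near the summit in fiber-only peaks, while the Maf word rises in both.

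The word content also varied with the state of a member in the embryo. Outside promoters, epithelium-only peaks that were overlapped by E14.5 epithelium alone held the Tead word in 29.7% (1257 of 4233). The share was 20.2% where both E14.5 lists overlapped, 15.6% where E14.5 fibers alone did and 16.8% where neither did. The median GC content was 51.0%, 53.0%, 53.5% and 53.0%, in the same order. The part of base composition in these shares was not tested. Fiber-only peaks held the Maf word in 24.4% where E14.5 fibers alone overlapped, in 25.6% where both did, in 21.2% where E14.5 epithelium alone did and in 20.1% where neither did. Fiber-only peaks held the Tead word in 11.3% where E14.5 fibers alone overlapped and in 11.0% where neither did. At the genes themselves, 6 of the 37 fiber-only peaks of alpha and beta crystallin genes held the Maf word and 3 the Tead word, beside 21.1% and 11.1% of all fiber-only peaks. Of the 29 epithelium-only peaks of adhesion and surface genes, 6 held the Tead word and 6 the Pitx word, beside 19.2% and 6.85% of all epithelium-only peaks.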

How the data were processed

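ATAC-seq libraries of CD1 mouse lens epithelium and fibers at E14.5 and P0.5 were made by the authors, 2 per group. Per the submitters' processing notes, the tools were Trim Galore 0.4.1, Bowtie2 2.3.3.1, SAMtools 1.2, Picard 2.1.1 and MACS2 2.1, with the build mm10. By the study's methods, adaptors were trimmed, mitochondrial and duplicated reads were removed, and peaks were called at a q value of 0.05. The deposited fold enrichment is a ratio of the pileup at a summit to its estimated background, and the authors deposited −log10 p and −log10 q values beside it. Libraries were pooled before the deposited calls, so that 2 libraries share each value. Whether the deposited lists passed a blacklist filter was not given in the sources used here, and 0 columns were left out.

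Fold enrichment served only for ranks within a list, with ties sharing a rank, since it depends on the depth and background of each list. Peaks were placed stepwise at promoters (2 kb), gene bodies, distal (50 kb) or intergenic, with 45756 curated RefSeq transcripts of GRCm38. Gene body coverage was taken for genes of 1 kb or more. Shares have Wilson and differences Newcombe 95% intervals, or a normal interval for paired shares. Words were searched on both strands. They were Tead GGAATG, Maf TGCTGA, Sox AACAAT, AP-1 TGANTCA, Fox TGTTTAC, Meis TGACAG, Pitx TAATCC, Runx TGTGGT, NF1 TTGGCA, Ets CCGGAA, CTCF AGGGGGC, Sp1 GGGCGG, homeodomain TAATTA, E-box CAGCTG, heat shock factor GAANNTTC, and the zinc finger factors of the Gata family were searched with AGATAA. Named genes were the members of 25 gene lists and the 10 genes on each side with the highest-ranked peak at a gene, the highest-ranked promoter peak in that tissue only, the most tissue-only peaks, or the largest coverage difference. Wider accounts of single genes among these (such as Crybb1, Jag2 and Efna5) were singled out with their values known. The members and lists were chosen with earlier results of these data known. Python 3.11.15, pandas 2.3.3, numpy 2.4.6, scipy 1.17.1 and pysam 0.24.0 were used, and the steps were tested on simulated data (100.0% of 5373 simulated peaks were sorted correctly).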

Additional observations from a re-analysis of the deposited data

Results flagged for a closer look

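Some members lay on unplaced scaffolds and entered no comparison of places or words. There were 10 such peaks among the 38938 fiber-only peaks and 23 among the 35543 epithelium-only peaks. Of the overlapped peaks, 63 of 24057 in the fiber list and 67 of 23049 in the epithelium list lay on scaffolds.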

How the results depend on the processing

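The lists give 1 pooled value per group, so leaving out a replicate was not possible. No paired analysis was possible because the replicate numbers of the labels have no columns in the pooled lists. Differences are fibers minus epithelium in percentage points. With q under 0.001 in both lists, in own list with no peak in the other, and with the 30000 strongest peaks, fiber-only peaks numbered 12165, 11708 and 13716. Epithelium-only peaks numbered 14473 with the 30000 strongest. The promoter share of fiber-only peaks under these 3 settings was 18.5%, 18.1% and 21.1%. It was 22.5% with 50% overlap of both peaks, 8.17% with promoters of 1 kb and 21.3% with predicted transcripts added. For epithelium-only peaks it was 18.5% with q under 0.001 in both lists, 21.2% with the 30000 strongest, then 22.7% (50% overlap), 11.7% (1 kb) and 22.7% (predicted transcripts). Genes with a promoter peak in fibers only numbered 357 and 308 under the first and second setting, and with a gene body peak 445 and 352. In epithelium only they numbered 1925 and 2052 under the first. The E14.5 overlap difference (E14.5 fibers minus E14.5 epithelium) of fiber-only peaks was 13.3, 13.6 and, with 50% overlap, 9.88. In epithelium-only peaks it was −6.26, −7.24, −9.77 (30000 strongest) and −3.80 (50% overlap). The Tead difference was −9.17 (second setting), −10.9 (30000 strongest), −6.81 (50% overlap), −5.45 (100 bp window), −9.10 (outside promoters) and −18.6 (strongest quintile outside promoters). The Maf difference was 1.43, 1.37 and 1.52 under the first 3 settings, with intervals above 0, and, in the strongest quintile outside promoters, 5.42. In that quintile, the Ets difference turned to 0.398, CTCF to 3.002 and E-box to 3.79, and E-box was 0.572, 0.658 and 0.571 under the first 3 settings. With the first 2 kb of gene bodies left out, the median coverage difference turned to −0.137 for fiber membrane and junction genes and for vascular genes, to 0.679 for FGF receptors and to 1.97 for Notch. With q under 0.001 it turned to −0.212 for the fiber cytoskeleton and −0.381 for vascular genes. The cause of these shifts was not tested. The strongest quintile, the GC range, chromosome X and the chromosome 17 block were chosen as alternatives after seeing the data. The Maf difference, whose interval over all peaks includes 0, was −0.187 at 50% to 60% GC, −0.209 in the 100 bp window and −0.0872 outside promoters. The order of the 2 sets by number of peaks turned with q under 0.001 and with the 30000 strongest.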

Other observations

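Of 21 genes of DNA replication and mitosis, 20 had a promoter peak in both P0.5 tissues, and Aurkb, a mitotic kinase, had one in epithelium only, beside 61.1% and 5.84% of all genes. Coverage was higher in epithelium for 12 and in fibers for 7 of them, with medians of 3.15% and 2.83%, beside 42.4% and 36.7% of all genes. With the first 2 kb of each gene body left out the order turned, with 2 higher in epithelium and 9 in fibers. Cdt1, which licenses DNA for replication, had 2 fiber-only peaks and coverage of 20.9% in fibers and 7.56% in epithelium. All 7 genes of cell cycle exit had a promoter peak in both tissues, and coverage was higher in epithelium for 6 of them. Of the inhibitors of cyclin-dependent kinases, Cdkn2c had coverage of 8.06% in fibers and 20.3% in epithelium, and Cdkn1c 52.1% and 54.9%. Ribosomal protein genes, taken as a reference, had a promoter peak in both tissues in 74 of 83 cases, and genes of the respiratory chain in 87 of 95, beside the same 61.1% of all genes. Among genes no shorter than 1 kb, coverage was higher in epithelium for 42 and in fibers for 33 of 78 ribosomal genes. For the 93 respiratory chain genes the counts were 57 and 31. Over all genes they were 8300 and 7179, with equal coverage in 4077 more. With the first 2 kb left out the order turned here too, with 0 ribosomal genes higher in epithelium and 5 in fibers, and 6 and 18 respiratory chain genes. Over all genes, 4153 were then higher in epithelium and 5761 in fibers.

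Members were unevenly spread along the genome. Blocks of 500 kb with a peak of either P0.5 list held a median of 3 fiber-only and 5 epithelium-only peaks. The block of chromosome 10 from 81000001 to 81500000 held 172 fiber-only and 31 epithelium-only peaks, and the block of chromosome 17 from 56000001 to 56500000, with Kdm4b, held 150 and 45.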
